A study of Mus musculus with 6 samples.

Results

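Blood stem cells are isolated by the proteins on their surface, and the transcripts of those proteins were examined here in sorted cells with induced deletion of 1 allele of Myc. The genes were 10 markers used to sort or define stem cells and early progenitors: Kit, Ly6a, Slamf1, Cd48, Procr, Cd34, Flt3, Fgd5, Esam and Tek. They were chosen by symbol from a deposited table of 11779 genes, and all 10 were present and passed the filter on low counts that left 10869 genes for testing. Bone marrow long-term hematopoietic stem cells were sorted from female mice aged 8 weeks for Sca-1, c-Kit and CD150 and against CD48 and lineage antigens, and RNA-seq was run on 3 libraries of each genotype. The c-Mycfl/+Mx1Cre group (HET; libraries 1, 3 and 4) carried a floxed Myc allele, a wild-type allele and the Mx1-Cre transgene, and the c-Mycfl/+ group (WT; libraries 1, 3 and 4) carried the same floxed and wild-type alleles without Cre. Deletion was induced with 3 intraperitoneal injections of poly(I:C), a double-stranded RNA analog, at 6 mg/kg. Injection of the WT mice is not stated separately. The Mx1 promoter responds to interferon in many cell types and is not restricted to stem cells. Since WT mice had no Cre, the presence of Cre and the deletion of Myc cannot be told apart. The sources do not say how many mice gave each library, so p-values measure the spread between these libraries. The libraries are titled knockouts in the HET group, and the genotype label was followed.

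The markers fall into classes with different roles. KIT and FLT3 are receptor tyrosine kinases for stem cell factor and FLT3 ligand, and TEK (TIE2) is the receptor for angiopoietins. SLAMF1 (CD150) and CD48 are members of the SLAM family of immune receptors encoded near each other, and in mouse marrow CD150 without CD48 marks long-term stem cells while CD48 appears on progenitors. Sca-1, the product of Ly6a, is an interferon-inducible protein anchored to the membrane by a lipid. PROCR (EPCR) binds protein C, ESAM and CD34 are adhesion molecules of stem and endothelial cells, and FGD5 is an intracellular exchange factor for the GTPase CDC42 whose gene locus has been used for stem cell reporters.

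Total counts were 9886223, 4627452 and 5054028 in HET 1, 3 and 4 and ranged from 4249490 to 5600856 in WT libraries, so HET 1 was the deepest. Myc measured 294, 387 and 372 CPM (library-normalized counts, here on totals scaled by TMM in edgeR) in HET 1, 3 and 4, against 447, 427 and 542 CPM in WT 1, 3 and 4. The 3 HET libraries were all under the WT range for Myc (edgeR log2 fold change -0.43 ± 0.12 SE, adjusted p = 0.312).

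None of the 10 markers passed the test between HET and WT: 0 rose and 0 fell. At a Benjamini-Hochberg adjusted p of 0.05, edgeR's quasi-likelihood test called 28 of 10869 genes, or 0.258%, with 0.0368% higher and 0.221% lower in HET. At an unadjusted p under 0.05 there was 1 marker, Cd48, against 5.22% of all genes, and DESeq2, limma-voom and limma-voom with library weights also called 0 markers. The median log2 fold change of the markers was -0.08, with 4 positive and 6 negative values, and the median of all genes tested was 0.00. The HET and WT libraries did not overlap for Cd48, which was higher in HET, and for Tek, which was lower in HET. Over all genes tested, 10.3% had groups that did not overlap, 4.69% with HET above and 5.64% with HET below, and 2 of 10 markers cannot be read as standing apart from that share. The markers differed widely in how tightly the test bounded a difference, from Kit, whose interval spanned 90.4% to 118% of the WT level, to Cd48, whose interval spanned 110% to 644%.

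Scaled by exonic length, Kit was far above the other markers and Cd48 was lowest on average, as the plot of levels per kilobase shows. Kit averaged 134 ± 6.56 CPM per kb in HET and 130 ± 7.73 CPM per kb in WT (SD, n = 3 each). Below Kit, the ranges over the 6 libraries of Cd34, Esam, Procr, Fgd5 and Ly6a each overlapped those of the next gene in the order, so their order is not settled by these libraries. In that group the level in a single library ran from 18.1 CPM per kb for Ly6a in WT 1 to 40.9 CPM per kb for Procr in WT 4. Tek followed, with 16.5 ± 0.67 CPM per kb in HET and 19.3 ± 1.1 CPM per kb in WT, and its range did not overlap that of Slamf1, the next gene. Slamf1 had 11.1 ± 2.28 CPM per kb in HET and 11.98 ± 1.81 CPM per kb in WT, and lay above Flt3 in each of the 6 libraries although their ranges overlapped. Flt3 had 7.49 ± 1.62 CPM per kb in HET and 7.75 ± 2.35 CPM per kb in WT. Cd48 had 5.87 ± 2.42 CPM per kb in HET and 2.15 ± 0.678 CPM per kb in WT. Flt3 lay above Cd48 in 5 of the 6 libraries, HET 3 being the exception. The ordering at the protein level was not measured, and Cd34 and Flt3 were not part of the sort.

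**Figure D1:**
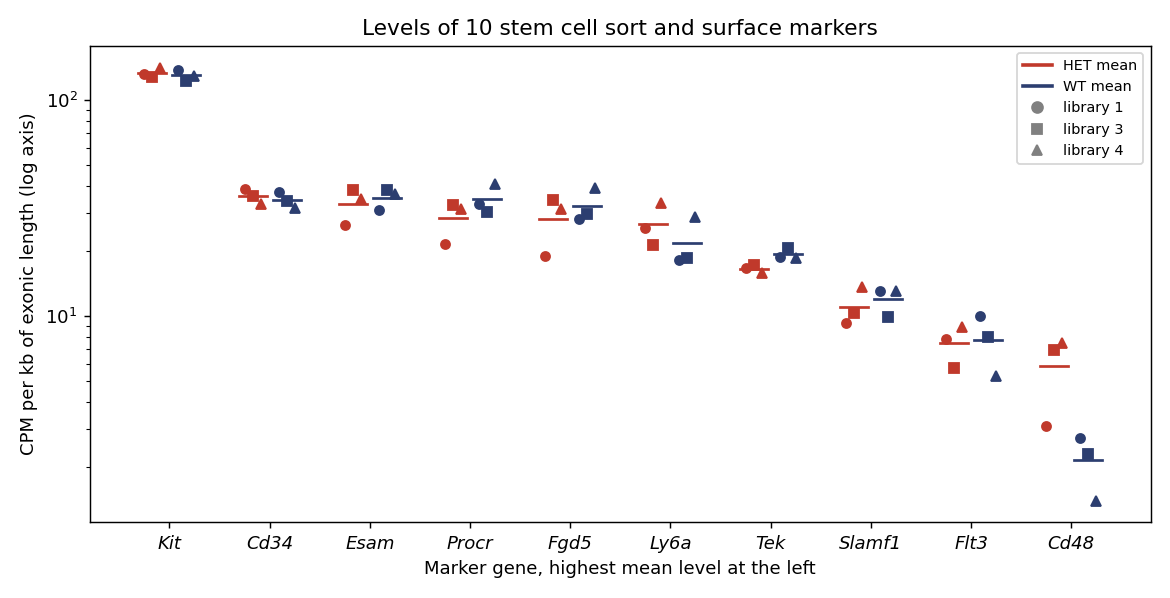
CPM per kb of exonic length (log axis) of the 10 markers in each library, HET at the left and WT at the right of each gene, with lines at the group means. Kit lies at or above 122 CPM per kb in all 6 libraries, and Cd48 has the lowest group means, with no WT library above 2.73 CPM per kb.

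The sort selected cells for the proteins of Kit, Ly6a and Slamf1 and against that of Cd48, so these 4 transcripts were measured in cells already restricted by their proteins, and their values are not independent of the gate. Kit (ENSMUSG00000005672), on the plus strand of GRCm38 chromosome 5 from 75574916 to 75656722, measured 1177, 1145 and 1258 CPM in HET 1, 3 and 4, against 1229, 1091 and 1151 CPM in WT 1, 3 and 4. The groups overlapped throughout, and the 6 libraries spanned a narrow band. In edgeR, Kit had a log2 fold change of 0.04 ± 0.09 (SE), with a 95% interval from -0.15 to 0.23 (adjusted p = 0.995).

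Ly6a (ENSMUSG00000075602; chromosome 15, 74994877 to 74998031, minus strand) measured 30.8, 25.5 and 40.1 CPM in HET 1, 3 and 4, against 21.8, 22.3 and 34.6 CPM in WT 1, 3 and 4. Library 4 was highest in both groups, and the groups overlapped through WT 4. Its log2 fold change was 0.30 ± 0.26 (SE; edgeR adjusted p = 0.995), with an interval from 85.1% to 178% of the WT level. Ly6a has close paralogs on the same chromosome, and the assignment of reads shared between them is not stated in any source here, which leaves its level uncertain. Of 12 listed relatives in the Ly6 family 2 were in the table. Ly6e, the more abundant, measured 362 ± 28.4 CPM in HET and 330 ± 17.9 CPM in WT (SD, n = 3 each; adjusted p = 0.995 in edgeR), and Ly6c2 had 29 pooled counts in HET and 37 in WT.

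Because Sca-1 responds to interferon, a list of interferon response genes was read beside it. Of 29 tested members 0 rose and 0 fell, 5 had an unadjusted p under 0.05 in edgeR (5.22% of all genes did), DESeq2 and limma-voom also called 0, 20 had positive and 9 negative fold changes, and the median log2 fold change was 0.09. The smallest p was that of Mx1, an antiviral GTPase whose promoter drives the Cre transgene, with 9.22, 6.11 and 16.8 CPM in HET 1, 3 and 4, against 4.15, 2.38 and 4.05 CPM in WT 1, 3 and 4 (log2 fold change 1.60 ± 0.50 SE, edgeR adjusted p = 0.45). Gbp2, a guanylate-binding GTPase, averaged 108 ± 13.4 CPM in HET and 78.4 ± 3.14 CPM in WT, and Zbp1, a nucleic acid sensor, 32.0 ± 7.52 CPM in HET and 18.5 ± 1.34 CPM in WT (SD, n = 3 each). All HET libraries lay above all WT libraries for these 3 genes and for 4 of the 29 in all, and this was so for 4.69% of all genes tested. The summed level of the list ranged from 1667 to 2076 CPM in HET and from 1584 to 1869 CPM in WT, and its part in the Ly6a values was not tested.

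Cd48 and Slamf1 lie in the same SLAM gene cluster on chromosome 1, and the sort used them in opposite directions. Cd48 was the marker with the largest difference. It measured 3.67, 8.29 and 8.96 CPM in HET 1, 3 and 4, against 3.25, 2.74 and 1.67 CPM in WT 1, 3 and 4. Every HET library lay above every WT library, but HET 1 exceeded WT 1 by little, and the coefficient of variation was 41.3% in HET and 31.6% in WT. These levels rest on few reads, with 37, 38 and 46 counts in HET 1, 3 and 4, and 18, 15 and 7 counts in WT 1, 3 and 4. The edgeR log2 fold change was 1.41 ± 0.61 (SE; 95% interval 0.14 to 2.69), a 2.66-fold higher level in HET whose unadjusted p of 0.0314 gave an adjusted p of 0.849. The pooled counts, scaled for library size, gave a ratio of 2.32 (exact 95% interval 1.61 to 3.41, for counting error only, since reads were not reduced to molecules). In bulk libraries, more cells with the transcript and more transcript per cell cannot be told apart.

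Slamf1 (ENSMUSG00000015316; chromosome 1, 171767127 to 171801184, plus strand) measured 57.0, 63.7 and 84.0 CPM in HET 1, 3 and 4, against 80.3, 60.9 and 80.1 CPM in WT 1, 3 and 4. The groups overlapped fully, with the lowest and the highest of the 6 libraries both in HET. Slamf1 gave -0.12 ± 0.18 as its log2 fold change (SE; edgeR adjusted p = 0.995; interval from 71.0% to 120% of the WT level). Within each library, Cd48 counts were 6.52%, 13.2% and 10.8% of the Slamf1 counts in HET 1, 3 and 4, against 4.15%, 4.65% and 2.23% in WT 1, 3 and 4, after adding 0.5 to each count. This ratio needs no scaling between libraries, and every HET library lay above every WT library. The mean difference was 1.48 on the log2 scale, with an exact two-sided permutation p of 0.1, the smallest that 3 against 3 libraries allow, and 0.3 when adjusted over the 3 ratios tested.

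**Figure D2:**
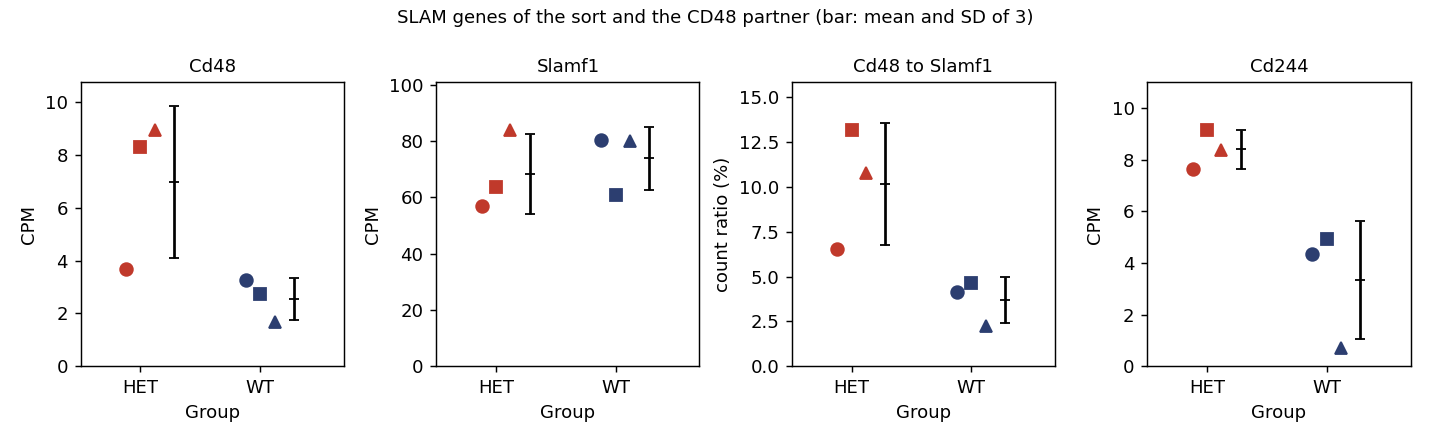
Cd48, Slamf1 and Cd244 in CPM and the Cd48 count as a percentage of the Slamf1 count, by library (circle 1, square 3, triangle 4), HET at the left and WT at the right, with black bars for the mean and SD of 3. Cd48, its ratio to Slamf1 and Cd244 do not overlap between the groups, whereas Slamf1 does.

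Cd48 (ENSMUSG00000015355; chromosome 1, 171682009 to 171705258, plus strand) is shown by its promoter window because it differed most of the 10 markers. The window (RefSeq, GRCm38.p6, chr1:171681742-171682041, plus strand) holds 250 bases before and 50 after the RefSeq start of the gene, which lies upstream of the GENCODE start just given. Capitals mark TTCCGG, the reverse complement of CCGGAA, a form of the ETS family site, which begins 7 bases after the RefSeq start base.
Cd48: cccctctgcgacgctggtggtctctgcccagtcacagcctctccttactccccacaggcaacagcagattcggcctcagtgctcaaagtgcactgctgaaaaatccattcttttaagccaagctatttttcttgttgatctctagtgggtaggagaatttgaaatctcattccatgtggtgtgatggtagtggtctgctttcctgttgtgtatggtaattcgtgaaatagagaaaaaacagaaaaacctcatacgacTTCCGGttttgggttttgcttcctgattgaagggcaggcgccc
Windows of this kind were found for 8 of the 10 markers. They were searched on both strands for CACGTG (the E-box bound by MYC with MAX), AGATAA (a motif of GATA factors), CCGGAA (a form of the ETS site), the interferon-stimulated response element (GAAA repeated after any 2 bases) and TTCNNNGAA (STAT factors). Other forms of the GATA and ETS sites were not searched. The sequence CCGGAA was present in 1 of the 8, Cd48, and in 14.9% of all 32851 windows in the table. The E-box was present in 1 (Flt3) and in 7.15% of all windows, and AGATAA in 1 (Tek) and in 11.2%. The interferon element (3.44% of all windows) and the STAT motif (8.30%) were in 0 of the 8. A match describes these letters only.

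The partners of the SLAM proteins were read beside them. CD244 (2B4), encoded in the same cluster, is the high-affinity partner of CD48 and marks progenitors rather than long-term stem cells in mouse marrow. Cd244 measured 7.64, 9.16 and 8.38 CPM in HET 1, 3 and 4, against 4.33, 4.94 and 0.715 CPM in WT 1, 3 and 4. Every HET library lay above every WT library, and WT 4, with 3 counts of Cd244, was the lowest library for both Cd244 and Cd48. Its log2 fold change was 1.30 ± 0.57 (SE; edgeR unadjusted p = 0.0349, adjusted p = 0.887), and the pooled count ratio was 2.30 (exact 95% counting interval 1.68 to 3.20). Ly9 and Cd84, the other SLAM family genes tested, measured 24.0 ± 1.77 and 51.3 ± 4.61 CPM in HET, against 22.3 ± 7.41 and 52.6 ± 6.94 CPM in WT (SD, n = 3 each; log2 fold changes 0.11 and -0.03).

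The stem cell markers that were not part of the sort gave no called difference either. PROCR enriches for cells with long-term activity, and Procr (ENSMUSG00000027611; chromosome 2, 155751117 to 155755471, plus strand) measured 43.9, 66.5 and 63.3 CPM in HET 1, 3 and 4, against 66.6, 61.8 and 83.0 CPM in WT 1, 3 and 4. HET 1 was the lowest of the 6 libraries, and HET 3 and HET 4 lay within the WT range. For Procr the log2 fold change came to -0.29 ± 0.19 (SE; edgeR adjusted p = 0.995; interval from 62.3% to 108% of the WT level), and it was -0.12 without HET 1. As a ratio to Kit in the same library, Procr counts were 3.74%, 5.82% and 5.04% of the Kit counts in HET 1, 3 and 4, against 5.43%, 5.67% and 7.22% in WT 1, 3 and 4. The difference of -0.34 on the log2 scale had an exact two-sided permutation p of 0.3 (0.45 adjusted over the 3 ratios).

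Fgd5 (ENSMUSG00000034037; chromosome 6, 91978878 to 92076004, plus strand) measured 119, 216 and 197 CPM in HET 1, 3 and 4, against 176, 187 and 248 CPM in WT 1, 3 and 4. HET 1 again stood lowest, and HET 3 and HET 4 lay inside the WT range. The log2 fold change was -0.20 ± 0.21 (SE; edgeR adjusted p = 0.995), and without HET 1 it was 0.02. Esam (ENSMUSG00000001946; chromosome 9, 37528078 to 37538319, plus strand) measured 75.3, 109 and 100 CPM in HET 1, 3 and 4, against 88.9, 110 and 105 CPM in WT 1, 3 and 4. Its log2 fold change was -0.10 ± 0.16 (SE; adjusted p = 0.995), and 0.05 without HET 1.

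HET 1 was thus the lowest of the 6 libraries for 4 of the 10 markers, Procr, Fgd5, Esam and Slamf1, as the grid of deviations shows. Relative to the WT mean it stood at -0.67 for Procr, -0.76 for Fgd5, -0.42 for Esam and -0.36 for Slamf1 on the log2 scale. For Kit it stood at 0.03 and for Cd34 at 0.17, so not every marker was low in it. HET 1 also had the highest summed level of the 15 megakaryocyte genes in the table, of 16 listed. Their sum was 1986, 1651 and 1756 CPM in HET 1, 3 and 4, and 1539 to 1582 CPM in WT. Within it, Itga2b measured 561, 364 and 391 CPM in HET 1, 3 and 4, and 263 to 316 CPM in WT. The sums of the groups came closest in HET 3 (1651 CPM) and WT 3 (1582 CPM). Itga2b differed by more between these libraries (364 and 289 CPM), so the separation of the sums rests on Itga2b. Itga2b was the only 1 of the 15 whose groups did not overlap, or 6.67%, against 10.3% of all genes. Of these 15 genes 0 passed in edgeR, 1 (Itga2b) passed in DESeq2 and 14 had positive fold changes. The part of the difference in this sum, or of the greater depth of HET 1, in the marker values was not tested. HET 4 was the highest of the 6 for 4 markers (Kit, Ly6a, Slamf1 and Cd48).

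**Figure D3:**
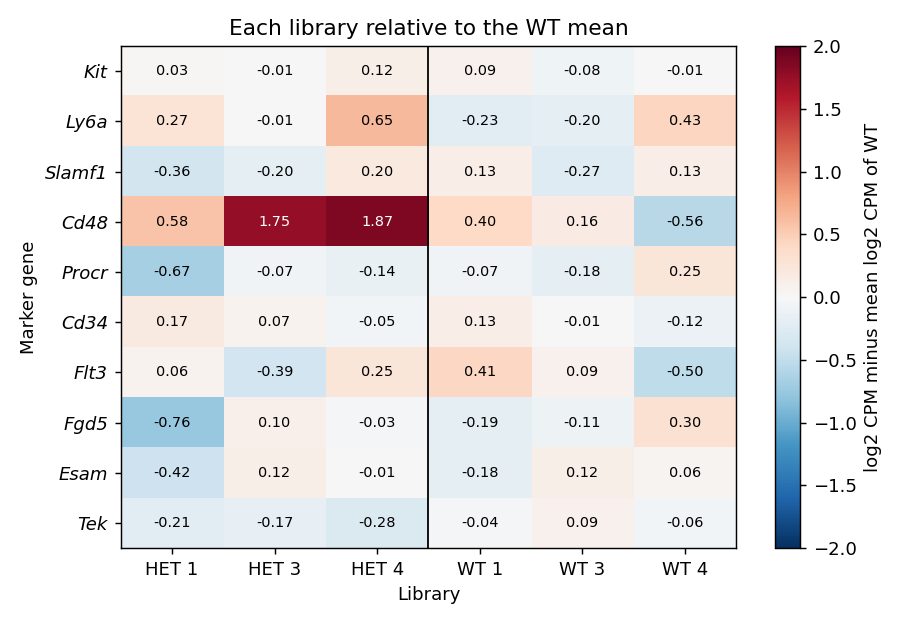
Log2 CPM of each marker in each library minus the mean log2 CPM of the 3 WT libraries, HET columns left of WT columns. Cd48 reaches 1.75 and 1.87 in HET 3 and HET 4 and 0.58 in HET 1, and the lowest value of Procr, Fgd5, Esam and Slamf1 is in HET 1.

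Tek was the only marker with all of its HET values under all of its WT values. TEK binds angiopoietin made in the marrow niche, and Tek (ENSMUSG00000006386; chromosome 4, 94739289 to 94874976, plus strand) measured 78.4, 80.9 and 74.6 CPM in HET 1, 3 and 4, against 88.6, 97.0 and 87.5 CPM in WT 1, 3 and 4. The spread inside each group was small, with SDs of 3.16 CPM in HET and 5.17 CPM in WT. The log2 fold change was -0.22 ± 0.15 (SE), or 85.6% of the WT level with an interval from 69.3% to 106% (edgeR unadjusted p = 0.142, adjusted p = 0.995). Leaving out each library in turn kept it from -0.25 to -0.18. Its promoter window (RefSeq, GRCm38.p6, chr4:94739039-94739338, plus strand) is given because its groups did not overlap, with the motif AGATAA in capitals, beginning 36 bases after the start base.
Tek: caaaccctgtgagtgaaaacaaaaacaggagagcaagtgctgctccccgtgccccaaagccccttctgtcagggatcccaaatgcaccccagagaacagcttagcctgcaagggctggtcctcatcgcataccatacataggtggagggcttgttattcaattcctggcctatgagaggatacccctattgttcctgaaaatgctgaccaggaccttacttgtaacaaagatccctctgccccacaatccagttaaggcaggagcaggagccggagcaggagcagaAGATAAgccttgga
Of the TEK pathway, the ligand gene Angpt1 averaged 479 ± 36.6 CPM in HET and 450 ± 43.7 CPM in WT, and the gene of the partner receptor, Tie1, 306 ± 59.1 CPM in HET and 299 ± 17.1 CPM in WT (SD, n = 3 each; edgeR adjusted p = 0.995 for each).

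The progenitor markers Cd34 and Flt3 overlapped between the groups. Cd34 (ENSMUSG00000016494; chromosome 1, 194938819 to 194961279, plus strand) measured 282, 262 and 241 CPM in HET 1, 3 and 4, against 273, 247 and 230 CPM in WT 1, 3 and 4. For Cd34 the log2 fold change came to 0.07 ± 0.12 (SE; edgeR adjusted p = 0.995), with an interval from 88.5% to 124% of the WT level. After Kit it was the most tightly bounded of the markers.

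Flt3 (ENSMUSG00000042817; chromosome 5, 147330741 to 147400489, minus strand) measured 48.4, 35.3 and 55.0 CPM in HET 1, 3 and 4, against 61.5, 49.4 and 32.7 CPM in WT 1, 3 and 4. The highest and the lowest library were both WT, so the WT spread covered all HET values. The log2 fold change was -0.05 ± 0.23 (SE; edgeR adjusted p = 0.995), and its sign changed without HET 3 (0.10) or without WT 1 (0.17). The Flt3 count was 84.9%, 55.6% and 65.5% of the Slamf1 count in HET 1, 3 and 4, against 76.7%, 81.1% and 40.9% in WT 1, 3 and 4 (exact two-sided permutation p = 0.8, and 0.8 adjusted over the 3 ratios). Flt3 was the marker whose promoter window (RefSeq, GRCm38.p6, chr5:147400440-147400739, minus strand, written along the gene) held the E-box CACGTG, in capitals, beginning 3 bases after the start base.
Flt3: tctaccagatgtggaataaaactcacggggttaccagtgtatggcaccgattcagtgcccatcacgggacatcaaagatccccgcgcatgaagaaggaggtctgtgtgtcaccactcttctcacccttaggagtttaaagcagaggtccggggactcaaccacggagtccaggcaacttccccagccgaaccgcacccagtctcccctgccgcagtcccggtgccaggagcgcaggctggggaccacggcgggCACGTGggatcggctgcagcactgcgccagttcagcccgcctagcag
Both are transcripts of early progenitors, and HET stood at 266% of the WT level for Cd48 (interval 110% to 644%) and at 96.4% for Flt3 (69.2% to 134%), a difference that was not itself tested.

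**Figure D4:**
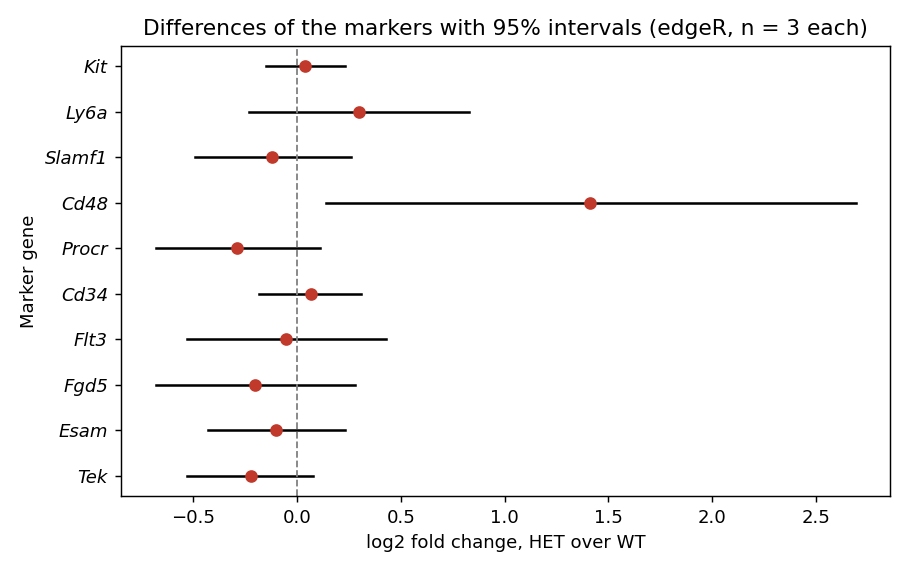
Log2 fold change of each marker, HET over WT, with its 95% interval from edgeR (n = 3 libraries each). The interval of Cd48, from 0.14 to 2.69, leaves out 0 before adjustment for the genes tested, and the other 9 include 0.

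Leaving out each library in turn gave no call for any of the markers. Cd48 lay between 1.19 and 1.73 on the log2 scale in those fits, lowest without HET 4 and highest without HET 1, and Kit between 0.00 and 0.09. The fold change of Ly6a ran from 0.12 without HET 4 to 0.54 without WT 4, and the 2 libraries numbered 4 were the highest of their groups.

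**Figure D5:**
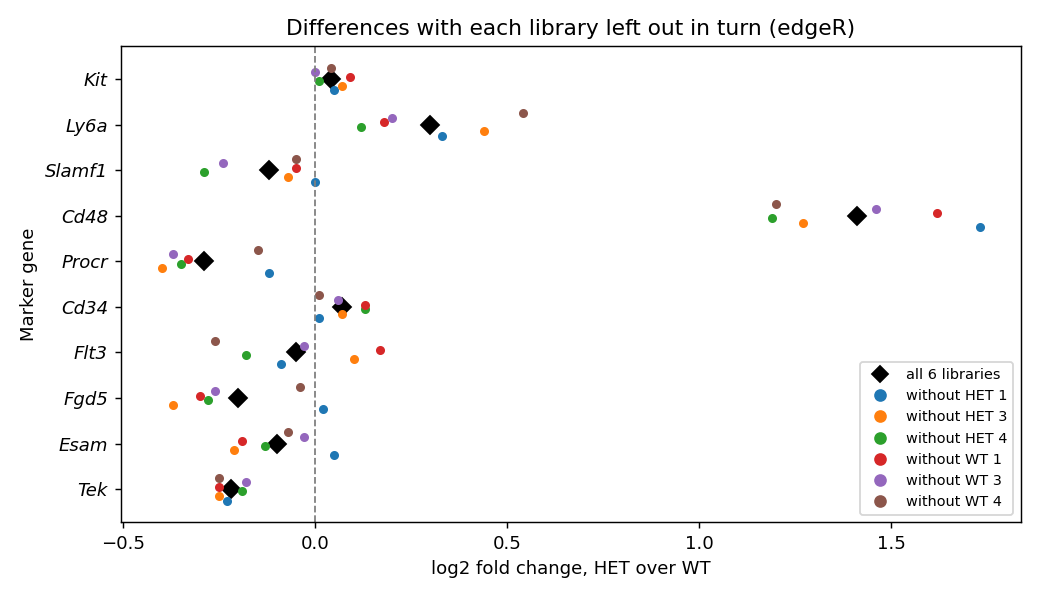
Log2 fold change of each marker, HET over WT, from edgeR with all 6 libraries (diamonds) and with each library left out in turn (circles). Cd48 stays at or above 1.19 in each fit, and Kit, Slamf1, Fgd5, Esam and Flt3 reach or cross 0 in at least 1.

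The wider set of stem cell surface and identity genes was read from a list of 32 further markers, of which 30 were in the table and tested. None rose and none fell with edgeR, where 2 of the 30 had an unadjusted p under 0.05 (5.22% of all genes did). Their fold changes were positive in 18 and negative in 12, and the median was 0.07. Itga2b, the integrin CD41 of megakaryocytes and of a platelet-biased stem cell subset, measured 561, 364 and 391 CPM in HET 1, 3 and 4, against 316, 289 and 263 CPM in WT 1, 3 and 4. All HET libraries lay above all WT libraries, and HET 1 was far above HET 3 and HET 4. The log2 fold change was 0.60 ± 0.14 (SE; edgeR adjusted p = 0.132), and Itga2b passed with DESeq2 (adjusted p = 0.0256) and without HET 3 (0.0337), while without HET 1 the log2 fold change was 0.38 (adjusted p = 0.183). Jam3, a junctional adhesion molecule, averaged 16.3 ± 2.53 CPM in HET and 25.7 ± 3.45 CPM in WT, and Cd27, a TNF receptor family member, 162 ± 17.4 CPM in HET and 139 ± 6.22 CPM in WT (SD, n = 3 each; edgeR adjusted p of 0.814 and 0.98). The HET libraries lay on 1 side of the WT libraries in 4 of the 30, or 13.3%, against 10.3% of all genes.

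Downstream of the receptors, the KIT and FLT3 signal chain showed no called gene. All 32 listed adaptors, kinases, phosphatases and inhibitors were tested, 17 with positive and 15 with negative fold changes, and the median was 0.01. No member had an unadjusted p under 0.05 in edgeR, and DESeq2 and limma-voom called 0. The adaptor gene Gab2 averaged 96.6 ± 18.0 CPM in HET and 78.6 ± 10.1 CPM in WT, the inhibitory adaptor gene Dok2 54.5 ± 12.1 CPM in HET and 42.7 ± 4.19 CPM in WT, and the kinase gene Src 24.8 ± 2.09 CPM in HET and 33.2 ± 6.42 CPM in WT (SD, n = 3 each; edgeR adjusted p = 0.98 for each). Of 21 ligands and binding partners of the markers 10 were in the table, and 0 of these 10 passed in edgeR, DESeq2 or limma-voom. An unadjusted edgeR p under 0.05 was reached by 1 (Cd244), against 5.22% of all genes. The genes of stem cell factor and FLT3 ligand were not in the table. Besides Cd244, Tjp1, a tight junction scaffold, averaged 24.7 ± 13.5 CPM in HET and 39.3 ± 16.3 CPM in WT (SD, n = 3 each).

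Markers of other cells were read beside Cd48. No gene of the lineage, lymphoid, neutrophil, erythroid, mast cell or endothelial lists passed in edgeR, DESeq2 or limma-voom with all 6 libraries, and limma-voom with library weights called 1, Cd52. For Cpa3, Cd52 and Cd4, however, DESeq2 returned no adjusted p, so it gave no verdict on them. An unadjusted edgeR p under 0.05 was reached by 2 of 6 tested lineage genes and 2 of 8 erythroid genes. It was also reached by 1 of 16 neutrophil, 1 of 3 mast cell, 1 of 8 endothelial and 0 of 5 lymphoid genes. Over all genes tested the share was 5.22%. Of 18 genes listed here for mature lineages, 7 were in the table, with a summed level of 268 to 310 CPM in HET and 175 to 271 CPM in WT. The list need not match the lineage antibodies of the sort. Most of the summed level was Ptprc, the common leukocyte antigen gene, of which lineage antibodies see a splice form. Ptprc measured 204, 234 and 234 CPM in HET 1, 3 and 4, against 224, 141 and 129 CPM in WT 1, 3 and 4 (log2 fold change 0.44 ± 0.18 SE, edgeR adjusted p = 0.835), and it passed without WT 1 (adjusted p = 0.0496). Itgam (CD11b), a myeloid integrin, measured 16.7, 29.0 and 13.1 CPM in HET 1, 3 and 4, against 11.9, 6.95 and 10.02 CPM in WT 1, 3 and 4 (adjusted p = 0.63), and Cd4 averaged 5.01 ± 1.52 CPM in HET and 2.55 ± 0.495 CPM in WT (SD, n = 3 each; adjusted p = 0.995). Both had every HET library above every WT library, which held for 2 of the 6 tested lineage genes and for 4.69% of all genes tested. Of these 6 genes, 4 had positive and 2 negative fold changes. Klrb1c had fewer pooled counts in HET (21) than in WT (51), and was at 0 in 1 HET library.

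Cpa3, a carboxypeptidase gene of mast cells, basophils and their progenitors, had 44, 15 and 16 counts in HET 1, 3 and 4, and 2, 1 and 0 counts in WT 1, 3 and 4. The pooled ratio was 19.2 (exact 95% counting interval 6.32 to 95.2), and the edgeR adjusted p was 0.149. The adjusted p of Cpa3 depended on the setting, at 0.0527 in edgeR with the stricter filter and 0.301 with no filter. Cpa3 passed the filters on low counts through its HET libraries alone. Its ratio and filtered p-values are thus those of a gene admitted by the group where it is high, and cannot be read as support for a difference. The adjusted p of Cpa3 was 0.0595 in limma-voom with library weights, and 0.287 to 0.614 in edgeR when a library was left out. The list of 10 mast cell and basophil genes had 4 in the table, with a summed level of 769 to 882 CPM in HET and 771 to 871 CPM in WT, nearly all of it Gata2 (823 ± 58.7 CPM in HET and 817 ± 49.7 CPM in WT, SD, n = 3 each), a transcription factor that stem cells also express. Hdc, at a low level, averaged 2.22 ± 2.87 CPM in HET and 2.19 ± 0.465 CPM in WT (SD, n = 3 each; log2 fold change -0.01). Fcer1a had 18 pooled counts in HET and 14 in WT, so neither shared the difference of Cpa3. Of 14 lymphoid and multipotent progenitor genes 8 were in the table, summing to 195 to 222 CPM in HET and 209 to 250 CPM in WT. Among them Satb1, a chromatin organizer of lymphoid priming, averaged 10.04 ± 1.29 CPM in HET and 16.3 ± 4.42 CPM in WT (edgeR adjusted p = 0.95), and Cd52, a leukocyte surface antigen gene, measured 4.46, 0 and 0 CPM in HET 1, 3 and 4, against 8.30, 2.93 and 5.25 CPM in WT 1, 3 and 4. Cd52 did not pass in edgeR with all 6 libraries (adjusted p = 0.995), but it passed in limma-voom with library weights (0.034) and in edgeR without HET 1 (0.0185), where both remaining HET libraries were at 0. Dntt and Igll1 were at 0 in 2 HET libraries and 1 WT library each, and Vpreb1 in 2 WT libraries.

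The summed levels of the other lists overlapped between the groups, apart from the erythroid and megakaryocyte lists. For the megakaryocyte list that separation rested on Itga2b, as given above. The 16 neutrophil and macrophage genes in the table, of 18, summed to 514 to 772 CPM in HET and 473 to 971 CPM in WT. Of these 16, 4 had positive and 12 negative fold changes, with a median log2 fold change of -0.34. Prtn3, a neutrophil granule protease gene, averaged 71.7 ± 6.29 CPM in HET and 96.9 ± 13.1 CPM in WT. The 9 erythroid genes in the table, of 13, summed to 708 to 781 CPM in HET and 805 to 922 CPM in WT, mostly Car2, a carbonic anhydrase gene, with 639 ± 36.7 CPM in HET and 754 ± 41.7 CPM in WT (SD, n = 3 each; edgeR adjusted p = 0.821). The sum thus follows Car2 and does not describe the list as a whole. Of the 8 erythroid genes tested, 4 had positive and 4 negative fold changes, with a median of 0.03. Car1 and Car2 alone had an unadjusted edgeR p under 0.05 (0.0188 and 0.0239), both with every HET library below every WT library. Car1, at a low level, averaged 1.63 ± 0.672 CPM in HET and 6.04 ± 5.16 CPM in WT (SD, n = 3 each; edgeR adjusted p = 0.788). Hbb-bt averaged 8.6 CPM in HET and 5.3 CPM in WT, with every HET library above every WT library (edgeR unadjusted p = 0.134). Since Tek, Esam, Procr, Cd34 and Fgd5 are also endothelial genes, the endothelial list was checked: 12 of 15 were in the table, summing to 847 to 1077 CPM in HET and 855 to 1003 CPM in WT. The endothelial genes Flt1 and Plvap were close to 0, with 21 and 37 pooled counts in HET and 5 and 13 in WT, and Flt1 was at 0 in 2 WT libraries. Pecam1, which blood stem cells share with endothelium, averaged 147 ± 9.51 CPM in HET and 110 ± 15.7 CPM in WT (SD, n = 3 each; edgeR adjusted p = 0.464), with no overlap. Emcn and Sox18 of the same list went the other way. Emcn averaged 20.85 CPM in HET and 26.2 CPM in WT, and Sox18 4.27 CPM in HET and 7.49 CPM in WT. Of the 8 endothelial genes tested, 5 had positive and 3 negative fold changes. The part of any of these cells in the Cd48 values was not tested.

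For the 3 markers of highest mean CPM, not scaled by length, the genes whose log2 CPM followed them most closely over the 6 libraries were taken as a description. Kit was followed by Treml1 (Pearson r = 0.994) and Nat6 (0.993), and 89 genes had an r over 0.9 with it. Cd34 was followed by Wac (0.991) and 1810058I24Rik (0.982), with 84 genes over 0.9. Fgd5 was followed by Cpxm1 (0.996) and Prdm16 (0.993), with 182 genes over 0.9. Prdm16, a transcription factor gene of stem cell maintenance, measured 135, 237 and 210 CPM in HET 1, 3 and 4, against 202, 205 and 257 CPM in WT 1, 3 and 4, with its lowest value in HET 1 as for Fgd5. With 6 libraries and 10869 genes, such values are reached by many genes.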

How the data were processed

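The deposited file holds the authors' raw read counts, as whole numbers, for each gene in 6 libraries. The submitters' processing notes name FastQC, STAR 2.5.2b, edgeR, limma and mm10, without role or order. The read counter, annotation and strand setting are not stated, and the protocol fields attached to the samples describe other material and were not used. Each gene in the table exceeded 1.01 CPM in at least 2 libraries, and 18 date-like symbols were mapped back. Counts were fitted with edgeR 4.0.16 in R 4.3.3 (filterByExpr, TMM, robust quasi-likelihood, group as the only term, two-sided, Benjamini-Hochberg threshold 0.05), checked on simulated counts. The biological coefficient of variation was 20.7%. Standard errors and 95% intervals came from the F statistic and its degrees of freedom. Exonic lengths and gene positions came from GENCODE M21 (GRCm38, also called mm10). The markers and lists were chosen with earlier results of these data known. Named genes were Myc, the 10 markers, from each list the called genes and up to 3 with the next smallest p, and 2 closest genes for each of the 3 markers of highest mean CPM. Flt1, Plvap, Dntt, Igll1, Vpreb1, Angpt1, Tie1, Fcer1a and Klrb1c were added after their values were seen. Alternatives used DESeq2 1.42.0, limma 3.58.1, other scalings, filters and thresholds, a block and leaving out libraries. Motifs and the ratios' pseudocount of 0.5 were also set by hand. Some results for single genes are left out.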

Additional observations from a re-analysis of the deposited data

How the results depend on the processing

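No marker passed in any alternative run (RLE or upper quartile scaling, no filter, a stricter filter, DESeq2, limma-voom with or without library weights, a threshold of 0.1, the block, or leaving out a library). The count of all genes called was 28 with all libraries, 59 with DESeq2, 43 with limma-voom with library weights, and 10 to 68 when a library was left out: 68 without HET 1, 10 without HET 4 and 11 without WT 1. The cause was not tested. With the library number as a block it was 49 and no marker passed. Itga2b then passed (log2 fold change 0.58, adjusted p = 0.0303), and the Cd48 to Slamf1 difference was 1.48. Deviations from the group means correlated at 0.112, -0.044 and 0.072 between same-numbered libraries (1, 3 and 4). Between differently numbered libraries the correlations ran from -0.174 to 0.111. With 3 libraries in each group these values cannot exclude pairing. No source states that the numbers pair the libraries, so the main fit used no block.

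Left-out libraries gave differences of 1.15 to 1.77 for the log2 ratio of Cd48 to Slamf1, -0.22 to 0.27 for Flt3 to Slamf1 (-0.07 without HET 1 and -0.22 without WT 4, against 0.09 with all) and -0.48 to -0.16 for Procr to Kit. Signs of small log2 fold changes turned for Slamf1 (0.00), Fgd5 (0.02) and Esam (0.05) without HET 1, for Flt3 without HET 3 (0.10) and WT 1 (0.17), for Cd84 without HET 3 (0.04) and WT 1 (0.08), for Ly9 without WT 3 (-0.14), and for Gata2 with limma-voom (-0.00), without HET 3 (-0.04) and without WT 1 (-0.03). Over the fits that left out 1 library, the values ran from -0.29 to 0.00 for Slamf1, from -0.26 to 0.17 for Flt3, from -0.37 to 0.02 for Fgd5, from -0.21 to 0.05 for Esam, from -0.10 to 0.08 for Cd84, from -0.14 to 0.28 for Ly9 and from -0.04 to 0.06 for Gata2.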
